A study of Homo sapiens with 12 samples.

Results

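Translation initiation factors are the proteins that bring the initiator tRNA, the small ribosomal subunit and an mRNA together and set the ribosome on a start codon. Their genes were examined after exposure to toosendanin, a triterpenoid of Melia toosendan known for liver toxicity, and in control, both in HepG2, a widely used hepatocellular carcinoma line. The members are the genes whose name begins with EIF and a digit from 1 to 6, that are listed in both the expression table and the m6A table, and that have a p-value for expression. The EIF2AK kinases, antisense and divergent transcripts and pseudogenes were left out. Of 61 such names in the expression table, 46 met the rule, out of 16552 genes with an adjusted p. The EIF4EBP genes were kept, because the P and digit that end their names do not mark a pseudogene, and 44 members remain without the pair that met the rule.

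The study holds 12 libraries, 3 of RNA pulled down by antibody for m6A, a methyl mark on adenosines inside mRNA (IP), and 3 of input RNA for toosendanin, and 3 of each kind for control. The labels give no dose, no time and no vehicle, and HepG2 is a single line. The files used here hold the authors' test of expression and, for m6A, counts already added up per condition, so each value stands for a condition and no spread between libraries could be shown. Summed over all regions the counts came to 29094328 for toosendanin IP, 24253006 for toosendanin input, 42316089 for control IP and 34131862 for control input.

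In eukaryotes, eIF2 carries the initiator tRNA in a GTP-bound ternary complex, and eIF2B recharges eIF2 with GTP after each round. eIF3, a large multi-subunit complex, holds the small subunit open for mRNA, while eIF4E binds the mRNA cap, eIF4G bridges cap and ribosome, and the helicase eIF4A unwinds the leader. eIF1, eIF1A and eIF5 act in start codon choice, and eIF5B joins the large subunit. Cells slow initiation by phosphorylating the alpha subunit of eIF2 or by freeing 4E-BP proteins, which sequester eIF4E. Many mRNAs of the translation machinery begin with a run of pyrimidines, the 5′ terminal oligopyrimidine (TOP), through which mTOR signalling controls their translation.

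Sequence around the start site was read for 39 of the 46 members from RefSeq (GRCh38.p14). EIF2S2, EIF3A, EIF3E, EIF3G, EIF3H, EIF3L and EIF4EBP1 were not matched. The windows below span 10 bases before to 20 bases from the start site, on the transcript strand. They are shown because TOP mRNAs carry their run at this place, and because EIF2S3 and its copy EIF2S3B are nearly the same there. Capitals mark the longest run of C and T where it has 8 or more bases, and a sequence with no capitals has no such run.
EIF3F: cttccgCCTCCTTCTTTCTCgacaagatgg
EIF3K: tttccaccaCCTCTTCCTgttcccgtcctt
EIF3I: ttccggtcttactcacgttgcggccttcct
EIF3D: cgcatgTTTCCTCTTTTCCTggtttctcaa
EIF4B: tcatccgggtcttttgcgTTCTCTTTCCCT
EIF2S3: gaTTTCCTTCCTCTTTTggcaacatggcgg
EIF2S3B: gaCTTTCTTCCTCTTTTggcaacatggcgg
EIF3B: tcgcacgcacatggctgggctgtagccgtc
EIF3J: ccgccgtgctaactcctcgctagctctccc
EIF5B: ctgagaactcacaccatatgtgtcctgttc
These windows lie at chr11:7987327-7987356 (EIF3F), chr19:38619178-38619207 (EIF3K), chr1:32222397-32222426 (EIF3I), chr12:53006446-53006475 (EIF4B), chrX:24054946-24054975 (EIF2S3), chr12:10505880-10505909 (EIF2S3B), chr7:2354817-2354846 (EIF3B), chr15:44537137-44537166 (EIF3J) and chr2:99337379-99337408 (EIF5B), all on the plus strand. The window of EIF3D lies at chr22:36529147-36529176 on the minus strand. A run of 8 or more C or T bases lay somewhere in such a window for 12 of 39 matched members (30.8%). The share was 15.4% of 27305 genes in the RefSeq table. Runs that lie wholly before the start, as in EIF1AY, or begin after it, as in EIF4B, were counted too. Runs of 8 or more A or G bases, the same search on the other strand, were found for 1 of the 39 members (2.56%) and 13% of the same genes. By expression call, 3 of 8 matched members that rose, 3 of 11 that fell and 6 of 20 that did not pass held the pyrimidine run. The printed windows are a selection and do not stand for these shares. Among those not printed, EIF1AY and EIF4H fell and held a run, and EIF1, EIF1B, EIF4EBP2 and EIF4E3 rose and held none. These are descriptions of letters in a window and say nothing about use of the start site in these cells.

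Initiation factor transcripts changed in both directions after toosendanin, mostly by small amounts. At an adjusted p under 0.05 in the authors' deposited DESeq2 table, 22 of 46 members passed (47.8%), 10 higher and 12 lower after toosendanin. The same authors' deposited table called 31.4% of all genes with an adjusted p, 15.7% higher and 15.7% lower. Of the members, 44 lay in the upper 50% of genes by mean normalized count, where the authors' deposited table called 45.4% of all genes and 45.5% of the members. The share of members called was thus close to that of other well-counted genes. The median absolute log2 change in the authors' deposited table was 0.20 over the members and 0.24 over all genes in that upper 50%. Of the 22 called members, 18 changed by less than 0.5 on the log2 scale in the authors' deposited table. RNA was measured in bulk, so fewer cells of a kind and less RNA per cell cannot be told apart.

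**Figure D1:**
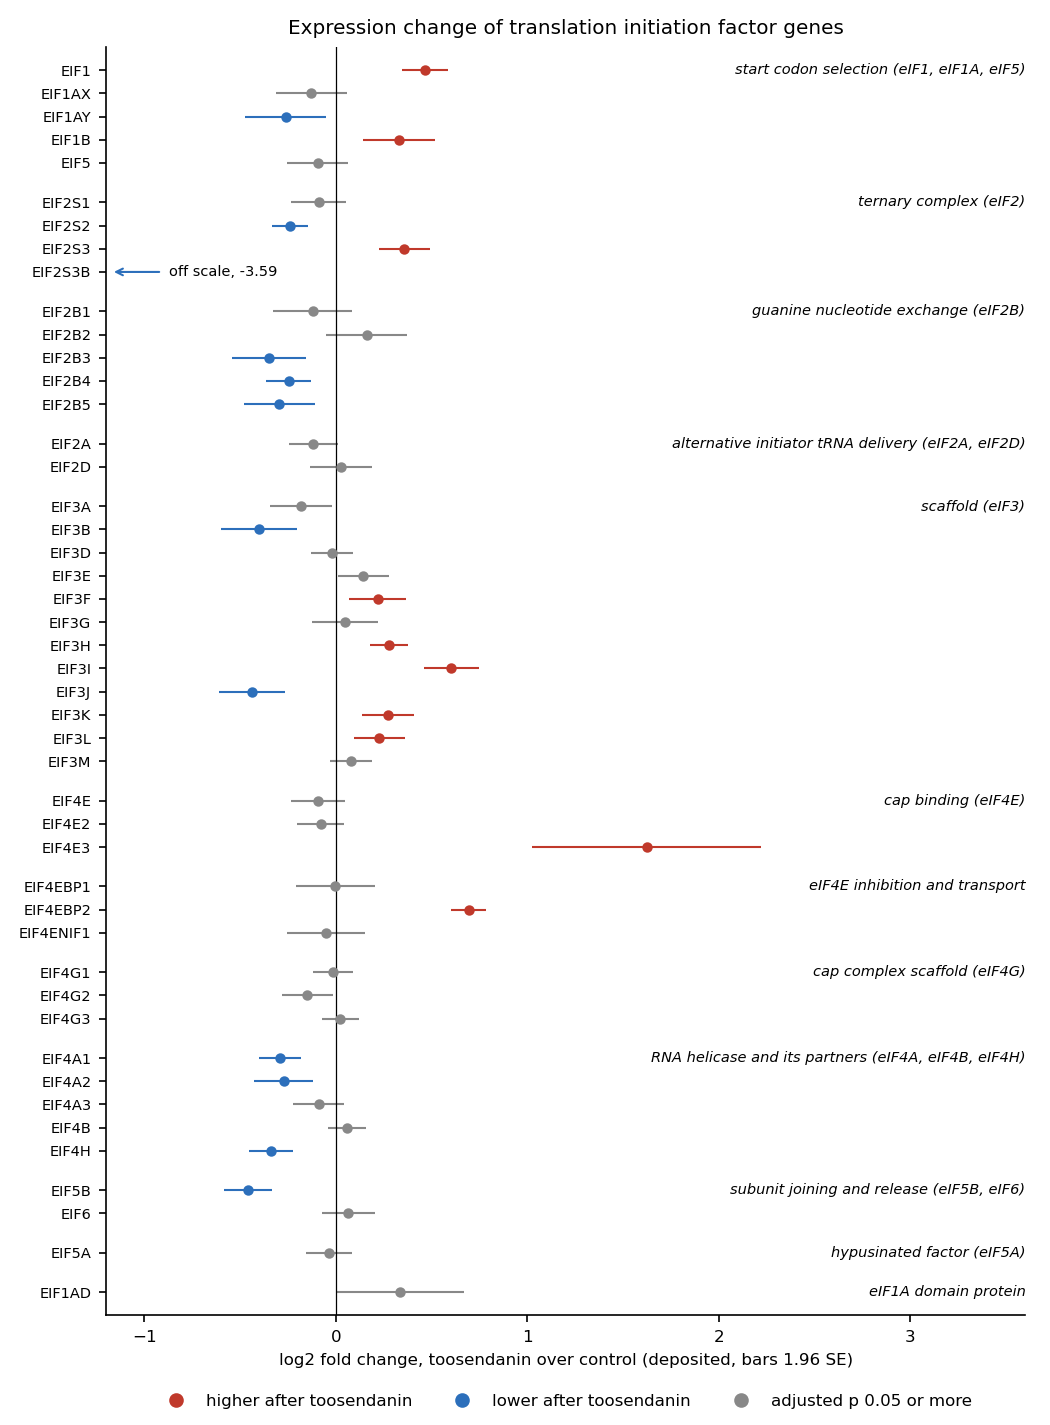
Log2 fold change of each of the 46 member genes, toosendanin over control, from the authors' deposited table, grouped by role; bars are 95% intervals before any adjustment, red and blue mark genes higher and lower at an adjusted p under 0.05. EIF4E3 and EIF4EBP2 lie farthest to the right, and EIF2S3B, at -3.59, is off the scale to the left.

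Among the factors that choose the start codon, EIF1, which keeps the scanning ribosome from stopping at poor start sites, rose. Its input, summed over the listed m6A regions of the gene, was 438 counts per 1000000 of the column total (CPM) after toosendanin and 314 CPM in control. Input CPM here and below covers the listed regions of a gene only, so it does not rank genes by transcript level. The authors' deposited table lists EIF1 at 1.38-fold (adjusted p of that DESeq2 table = 6.79e-13), a log2 change of 0.47 ± 0.06. Later expression values with ± are also log2 changes with their standard error. Its close relative EIF1B was 1.26-fold higher (95% interval 1.11 to 1.43) in the authors' deposited table. EIF1AY, a form of eIF1A, stood at -0.26 ± 0.11 on the log2 scale with an adjusted p of 0.0498 in the authors' deposited DESeq2 table. The Benjamini-Hochberg value of EIF1AY is 0.0574 when every deposited DESeq2 p-value enters the adjustment, which ends the call. EIF1AX, whose sequence is nearly that of EIF1AY, had -0.13 ± 0.09 on the log2 scale by the authors' deposited table, and EIF5, the activator of GTP hydrolysis by eIF2, had -0.09 ± 0.08. The sources used here do not say how reads were split between EIF1AX and EIF1AY.

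The subunits of eIF2 differed in direction. EIF2S1, the alpha subunit that stress kinases phosphorylate, had 81.6 input CPM after toosendanin and 85.5 in control, and its listed log2 change of -0.09 ± 0.07 did not pass (adjusted p in the authors' deposited DESeq2 table = 0.396). EIF2S2, the beta subunit, had 328 input CPM after toosendanin and 380 in control, and fell to 0.85-fold (0.80 to 0.90) in the authors' deposited table. EIF2S3, the gamma subunit that binds GTP and the initiator tRNA, had 234 input CPM after toosendanin and 184 in control, and rose to 1.28-fold (1.17 to 1.40) in the authors' deposited table. The input levels moved in the direction of the listed change for each of these subunits. The sign of the listed changes was itself set from summed inputs, so this is not separate support.

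EIF2S3B, an intronless copy of EIF2S3, is given as uncertain. The authors' deposited table lists it at -3.59 ± 1.02 on the log2 scale with an adjusted p of 0.00218. Its summed inputs held 918 counts after toosendanin and 1125 in control, which after centring on the median gene gives a log2 ratio of 0.20 ± 0.06 (Poisson error). The listed fall and the summed inputs thus point in opposite directions for EIF2S3B. The promoter sequences of the gene and its copy, printed above in part, match at 48 of the 50 bases that follow the start site, and the sources used here do not say how reads shared by both were assigned.

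Of the 5 eIF2B subunit genes, 3 fell and 2 did not pass. In the upper 50% of means, where all 5 lie, the authors' deposited table called 23% of genes lower. EIF2B3 and EIF2B5, the subunits of the catalytic part of the exchange factor, fell to 0.78-fold (0.69 to 0.90) and 0.82-fold (0.72 to 0.93) in the authors' deposited table, and EIF2B4, the delta subunit, fell to 0.84-fold (0.78 to 0.92). Input CPM was 19.5 after toosendanin and 24.96 in control for EIF2B3, 89.6 and 109 for EIF2B5, and 76.7 and 98.6 for EIF2B4. The other regulatory subunits, EIF2B1, at -0.12 ± 0.11, and EIF2B2, at 0.16 ± 0.11, missed the threshold of the authors' deposited table. The median log2 change of the 5 genes was -0.25, against a median of -0.00023 over all genes with an adjusted p. EIF2A and EIF2D, which deliver initiator tRNA in other ways, had log2 changes of -0.12 ± 0.06 and 0.03 ± 0.08 and did not pass, per the authors' deposited table.

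The eIF3 genes split between subunits. Of 12 measured, 5 rose and 2 fell by the authors' deposited table, with a median log2 change of 0.11. All 12 lie in the upper 50% of means, where 22.4% of genes were called higher and 23% lower. EIF3I, a WD-repeat subunit, rose most among them. Its summed input was 25.7 CPM after toosendanin and 15.7 in control, and the authors' deposited table lists it at 1.52-fold (1.38 to 1.68; adjusted p of that DESeq2 table = 3.92e-15). EIF3B, the subunit to which EIF3I binds, had 336 input CPM after toosendanin and 401 in control, and fell to 0.76-fold (0.66 to 0.87) in the authors' deposited table. EIF3G, the remaining gene of that module, was listed at 0.05 ± 0.09, without passing, by the authors' deposited table. EIF3J, a loosely attached subunit that acts at the decoding site, fell to 0.74-fold (0.65 to 0.83) in the authors' deposited table, with 64.2 input CPM after toosendanin and 85.8 in control.

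The subunits with PCI or MPN domains, which form the structural core of eIF3, included 4 of 7 that rose and 3 that did not pass, with a median log2 change of 0.22. EIF3H was 1.21-fold higher (1.13 to 1.30), EIF3K 1.21-fold (1.10 to 1.33), EIF3L 1.17-fold (1.07 to 1.28) and EIF3F 1.16-fold (1.05 to 1.29) in the authors' deposited table. Input CPM was 287 after toosendanin and 228 in control for EIF3H, 125 and 98.2 for EIF3K, 323 and 271 for EIF3L, and 77.8 and 64.9 for EIF3F. All 4 were higher in toosendanin input. EIF3E at 0.14 ± 0.07, EIF3M at 0.08 ± 0.06 and EIF3A at -0.18 ± 0.08 missed the threshold of the authors' deposited table. EIF3D, which contacts the cap of some mRNAs, was listed at -0.02 ± 0.06 there. This grouping of eIF3 by domain was made after the values were seen.

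**Figure D2:**
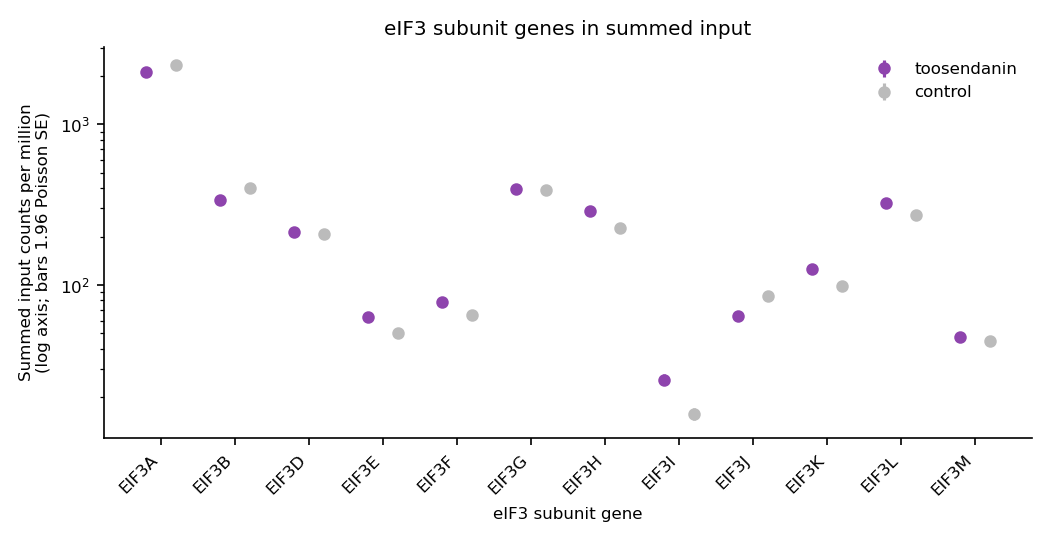
Input CPM (log axis), summed over the listed m6A regions of each of the 12 eIF3 subunit genes, in toosendanin (purple) and control (grey). Heights do not compare transcript levels between genes. Bars are 95% Poisson intervals and are mostly smaller than the points. Of the called genes, EIF3I, EIF3F, EIF3H, EIF3K and EIF3L are higher in toosendanin, and EIF3B and EIF3J are lower.

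At the cap, 1 of 3 eIF4E genes and none of the 3 eIF4G genes passed. EIF4E, the cap-binding protein, had -0.09 ± 0.07 on the log2 scale by the authors' deposited table, and EIF4E2, a related cap-binding protein that represses translation, had -0.08 ± 0.06. EIF4E3, another relative, was 3.08-fold higher (2.04 to 4.66) in the authors' deposited table, from a mean normalized count of 73.4, the lowest of the members. Its summed inputs held 36 counts after toosendanin and 15 in control. The scaffolds EIF4G1 at -0.01 ± 0.05, EIF4G3 at 0.02 ± 0.05 and EIF4G2, which lacks the eIF4E site, at -0.15 ± 0.07 all missed the threshold of the authors' deposited table. Their adjusted p-values in that authors' deposited DESeq2 table ran from 0.0802 to 0.888.

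EIF4EBP2, one of the 4E-BP proteins that bind eIF4E and block its contact with eIF4G, rose with the smallest p-value of the members. Its summed input was 129 CPM after toosendanin and 86.9 in control, and the authors' deposited table lists it at 1.62-fold (1.52 to 1.72; adjusted p of that DESeq2 table = 5.04e-48). EIF4EBP1, its better known paralogue, was listed at 0.00 ± 0.11 by the authors' deposited table, with 104 input CPM after toosendanin and 97.5 in control. EIF4ENIF1, which carries eIF4E into the nucleus, was listed at -0.05 ± 0.10 by the authors' deposited table. A direct test of the difference between EIF4EBP2 and EIF4EBP1 was not made.

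Of the 5 helicase and helicase partner genes, 3 fell and 2 did not pass, beside the 23% of well-counted genes called lower. EIF4A1, the main helicase of initiation, fell to 0.82-fold (0.76 to 0.88), EIF4A2 to 0.83-fold (0.74 to 0.92) and EIF4H, which stimulates eIF4A, to 0.79-fold (0.73 to 0.86) in the authors' deposited table. Input CPM was 385 after toosendanin and 456 in control for EIF4A1, 283 and 347 for EIF4A2, and 321 and 404 for EIF4H. EIF4B, the other stimulator of eIF4A, was listed at 0.06 ± 0.05 by the authors' deposited table. EIF4A3, which belongs to the exon junction complex, was listed there at -0.09 ± 0.07. In the subunit joining step, EIF5B fell to 0.73-fold (0.67 to 0.79; adjusted p in the authors' deposited DESeq2 table = 2.57e-11), with 377 input CPM after toosendanin and 510 in control. EIF6, which keeps the ribosomal subunits apart, at 0.07 ± 0.07, EIF5A, the hypusine-bearing factor, at -0.04 ± 0.06, and EIF1AD at 0.34 ± 0.17 missed the threshold of the authors' deposited table.

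The listed changes were set beside the summed inputs, which may come from the same libraries. The study holds no other libraries of RNA without pull-down, so agreement between these measures is not independent support. The sign of the listed changes was also set by their correlation with summed inputs. A shared sign for most genes was thus fixed in advance. The log2 ratio of summed inputs, centred on the median gene, lay within 0.2 of the deposited log2 fold change for 45 of 46 members, a limit as wide as the members' median absolute change. It lay within 1 deposited standard error for 31 members and farther off for 15, and had the same sign for 21 of the 22 called ones. EIF2S3B was the exception at the limit of 0.2 and in sign. Of the 24 members not called, 5 had the other sign in the summed inputs, with log2 values of at most 0.07 as deposited and 0.09 from inputs, either sign. By RefSeq, 12 of the 22 called and 15 of the 24 uncalled members overlap another gene. The called ones include EIF5B with REV1, EIF3J with SPG11 and EIF3B with SNX8. The sources used here do not say whether counting used the strand, so reads of such partners cannot be told apart.

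**Figure D3:**
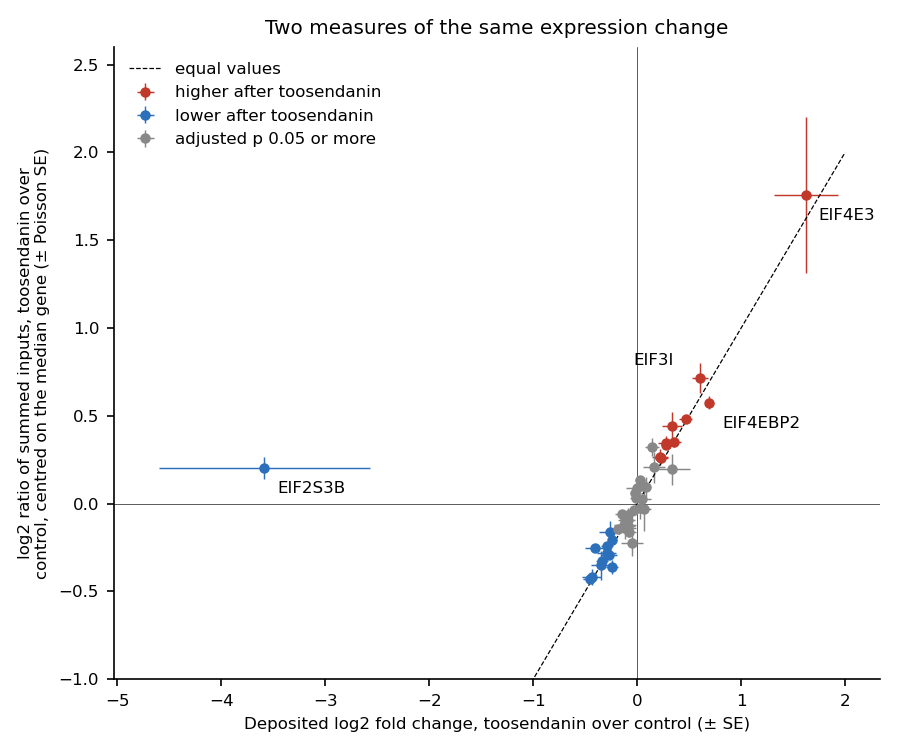
Deposited log2 fold change (horizontal, ± standard error) against the log2 ratio of summed input counts, centred on the median gene (vertical, ± Poisson standard error), toosendanin over control, for the 46 members. Points follow the dashed line of equal values except EIF2S3B, which lies at -3.59 and 0.20.

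Other genes of the pathway gave context. Of 8 genes of the eIF2 kinases, their regulators and the eIF2 phosphatase, 4 rose and 2 fell by the authors' deposited table. PPP1R15A, the stress-induced subunit that directs the phosphatase to eIF2, stood at 0.87 ± 0.12 and the kinase gene EIF2AK3 at 0.36 ± 0.08, while EIF2AK4, the kinase that senses uncharged tRNA, stood at -0.38 ± 0.05 and its inhibitor IMPACT at -0.82 ± 0.17 per the authors' deposited table. Of 13 measured targets of the integrated stress response 6 rose and 3 fell there. The transcription factor genes ATF3 and DDIT3 stood at 1.41 ± 0.15 and 1.199 ± 0.136, VLDLR at 0.93 ± 0.11 and CEBPG at 0.63 ± 0.08 per the authors' deposited table. The 3 that fell were DDIT4 at -0.78 ± 0.12, PSAT1 at -0.47 ± 0.09 and ASNS at -0.31 ± 0.09. ATF4, whose protein is made when eIF2 is phosphorylated, was listed at -0.01 ± 0.07 there.

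Of 11 elongation and termination factors 5 rose and 1 fell by the authors' deposited table. EEF1A1, which carries tRNA to the ribosome, stood at 0.30 ± 0.05 and EEF1B2, its exchange factor, at 0.24 ± 0.04 per the authors' deposited table, against ABCE1, the ribosome recycling factor, at -0.38 ± 0.08. EEF1A2, the muscle and brain form, was listed at 3.03 ± 0.36 from a mean normalized count of 127.8 by the authors' deposited table. PABPC1, the poly(A)-binding protein, stood at 0.36 ± 0.06 and was the called gene among 5 of its group per the authors' deposited table. DENR, at -0.21 ± 0.09, was the called gene among 8 other helpers of initiation, and MTIF2, a mitochondrial initiation factor, stood at -0.36 ± 0.06, per the authors' deposited table. Of 12 genes of the mTORC1 and MNK kinases and their regulators 3 rose and 2 fell there. MTOR itself stood at 0.49 ± 0.05, the eIF4E kinase MKNK2 at 0.76 ± 0.13 and the inhibitors TSC1 and TSC2 at 0.56 ± 0.09 and -0.26 ± 0.07 per the authors' deposited table. The authors' deposited table called 31.4% of all genes, and 45.4% of the well-counted genes set beside the members above. Most of the genes on these lists have means in that well-counted range, so 45.4% is the closer comparison. The counts of called genes describe the lists and are not tests of them.

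The eIF genes EIF3E, EIF3F, EIF3H and EIF4B are known to begin with a TOP. Of these 4, EIF3F and EIF3H rose by the authors' deposited table, and the median log2 change was 0.18. Among well-counted genes 22.4% were called higher, and a difference from that share was not tested. The windows of EIF3F and EIF4B printed above hold pyrimidine runs, and so does that of EIF3D, whose listed change was near zero. The runs of EIF3F and EIF3D begin at position -4 and span the annotated start. That of EIF4B begins only at position 9, so it is not at the annotated start.

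All 10 hepatocyte markers were counted, with mean normalized counts from 5546 for TTR to 411979 for APOB in the authors' deposited table. Of the fibroblast markers, COL1A1, COL1A2, DCN and LUM were listed at 0 in the authors' deposited table, as were PTPRC and CD3E of blood cells and KDR of endothelium. Of 4 endothelial markers, the other 3 had means of at most 13.1 and none had an unadjusted p under 0.05 in the authors' deposited table. PDGFRB stood at -2.25 ± 0.87 from a mean of 36.1, and LYZ, a blood cell marker, at -0.37 ± 0.06 from a mean of 49191, per the authors' deposited table. Of the hepatocyte markers, 5 rose and 1 fell by the authors' deposited table. The part of these markers in the members' values was not tested.

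The m6A table listed 145 regions for the 46 members, from 1 to 10 per gene with a median of 3, and no coordinates. Regions are numbered here by their control IP count, highest first. IP over input, each scaled to its column total, describes how far a region was pulled down relative to the listed regions together. A value of 1 is the ratio of the column totals, not a level without pull-down. Above and below input are used in that sense here and below. This scaled ratio exceeded 1 for 50 of 145 member regions after toosendanin (34.5%) and 52 in control (35.9%), against 49.1% and 48.3% of all 46178 regions. Regions with high counts and IP above input in both conditions included EIF5B region 1, at 1.957-fold after toosendanin and 2.08-fold in control. EIF3A region 1 stood at 1.65-fold after toosendanin and 1.70-fold in control, and EIF2S2 region 1 at 1.71-fold and 1.75-fold. EIF3J region 1 stood at 1.86-fold after toosendanin and 2.22-fold in control.

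An FDR was listed for 113 of the 145 member regions. At an FDR under 0.05 in the authors' deposited table, 24 regions of 16 members passed (21.2%), 4 higher (3.54%) and 20 lower (17.7%) after toosendanin. Over all regions the authors' deposited table called 8.95%, 2.71% higher and 6.24% lower. These shares of all regions are not matched to the member regions for count depth, and the part of depth was not tested. The deposited p-values hold counting error only, since the standard errors they imply were within 1% of the Poisson error of the counts for 99.5% of the 44409 regions checked. No standard error was listed for regions. For regions, ± therefore gives the Poisson error computed here from the summed counts, beside the deposited log2 change. Of these calls many were small: 13 of the 24 called regions changed by less than 0.25 on the log2 scale in the authors' deposited table. The split between higher and lower depended on scaling: with summed counts scaled to column totals 18 member regions were higher and 10 lower, and centred on the median region 12 were higher and 13 lower. The table as a whole turned in the same way, with 1816 of all regions higher and 566 lower when scaled to column totals, and 1305 higher and 787 lower when centred.

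Of the 5 called regions that changed by at least 0.5 on the log2 scale, 2 lay in EIF5A, and the others in EIF3J, EIF1 and EIF4E2. EIF5A region 1 held 804 IP and 2133 input counts after toosendanin, against 2063 IP and 3155 input counts in control. EIF5A region 3 held 560 IP and 1847 input counts after toosendanin, against 1580 IP and 2755 input counts in control. IP over input was 0.31-fold after toosendanin and 0.53-fold in control for region 1, and 0.25-fold and 0.46-fold for region 3. Both regions lay below their input in either condition. The authors' deposited table lists log2 changes of -0.89 for EIF5A region 1 (FDR 1.39e-31) and -0.99 for region 3 (FDR 1.12e-29). Their Poisson errors, computed here, were 0.07 and 0.08. EIF5A region 2 held 1355 IP and 2899 input counts after toosendanin, against 1704 and 4048 in control, and was listed at 0.09 ± 0.06 by the authors' deposited table (FDR 0.391). IP over input was called lower in 2 of the 3 regions of EIF5A, none of which lay above input in either condition. The expression change of EIF5A did not pass. EIF5AL1, an intronless copy of EIF5A, had a mean normalized count of 346.6 in the authors' deposited table, and the assignment of shared reads is likewise unstated in the sources used here.

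EIF3A, EIF3J, EIF5, EIF4G1 and EIF5B each had a region above its input in control that was called lower as deposited. It was also called lower when centred on the median region and when scaled to column totals. The same held with the deposited statistic divided by the robust spread (1.53) of all regions' statistics. These settings were applied separately, and neither rescaling was combined with the division by the spread. EIF3J region 1 held 2974 IP and 1333 input counts after toosendanin, against 7341 IP and 2666 input counts in control, and was listed at -0.33 ± 0.06 by the authors' deposited table (FDR 1.18e-06). EIF3J region 2, with 174 IP and 132 input counts after toosendanin and 345 and 138 in control, was listed at -0.93 ± 0.22 by the authors' deposited table. Unlike EIF3J region 1, region 2 did not pass once its statistic was divided by the spread (FDR 0.214). EIF5 region 1 held 5041 IP and 3268 input counts after toosendanin, against 8984 and 5020 in control, and was listed at -0.22 ± 0.04 by the authors' deposited table. EIF4G1 region 3, with 1710 IP and 1072 input counts after toosendanin and 2674 and 1366 in control, was listed at -0.38 ± 0.07, by the authors' deposited table. EIF5B region 1 held 15336 IP and 6531 input counts after toosendanin, against 34402 and 13371 in control, and was listed at -0.14 ± 0.03 by the authors' deposited table.

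The most deeply counted regions passed at very small changes. EIF3A region 1 held 97006 IP and 49097 input counts after toosendanin, against 163118 IP and 77312 input counts in control. Its log2 change was -0.13 ± 0.01 in the authors' deposited table (FDR 1.35e-33) and -0.05 when scaled to column totals. EIF4B region 1 held 48333 IP and 48043 input counts after toosendanin, against 65813 and 63269 in control. It was listed at -0.08 ± 0.01 by the authors' deposited table (FDR 2.78e-09), while scaling to column totals gave -0.00068. IP over input for EIF4B region 1, scaled to column totals, was 0.84-fold in both conditions, although its IP counts exceeded its input counts in each. The remaining called regions of EIF4B, regions 3 and 4, stood at -0.29 ± 0.09 and -0.27 ± 0.09 per the authors' deposited table.

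The 4 regions called higher all lay below their input in control, as did all but 40 of the 669 regions called higher in the whole of the authors' deposited table. EIF4H regions 1 and 2 were listed at 0.13 ± 0.03 and 0.24 ± 0.08 in the authors' deposited table, EIF3K region 1 at 0.28 ± 0.07 and EIF4G2 region 1 at 0.12 ± 0.03. IP over input was 0.74-fold after toosendanin and 0.62-fold in control for EIF4H region 1, and 0.51-fold and 0.39-fold for EIF3K region 1. EIF4G2 region 2 moved the other way, at -0.18 ± 0.05 in the authors' deposited table. Among the start codon factors, EIF1AX region 1 stood at -0.23 ± 0.06 and EIF1 region 3, with 89 IP counts after toosendanin and 137 in control, at -0.91 ± 0.24 per the authors' deposited table. The eIF2 genes EIF2S1 region 1 at -0.17 ± 0.05, EIF2S2 region 1 at -0.10 ± 0.03 and EIF2S2 region 2 at -0.41 ± 0.08 were called lower in the authors' deposited table. EIF2B4 region 1 at -0.24 ± 0.06, EIF4G1 region 2 at -0.13 ± 0.03 and EIF4E2 region 4 at -0.55 ± 0.17 completed the called regions of the authors' deposited table.

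Not called were the regions with most control IP counts in EIF2A, at 0.03 ± 0.05 (FDR 0.716), EIF4E2, at -0.04 ± 0.05 (FDR 0.647), EIF4G1, at 0.03 ± 0.02 (FDR 0.528), EIF2B5, at -0.13 ± 0.06 (FDR 0.139), EIF4EBP1, at 0.07 ± 0.05 (FDR 0.442) and EIF1AD, at -0.10 ± 0.14 (FDR 0.742), in the authors' deposited table. The 89 member regions with an FDR that were not called ranged from -1.32 to 0.70 on the log2 scale in the authors' deposited table. By gene, 16 of 46 members had at least 1 called region, against 14.4% of the 12692 genes with an adjusted p that both tables list. These were 7 of the 22 members with a called expression change and 9 of the 24 without one, against 19% and 11.7% of such genes in the tables. The difference between these groups of members was not tested. The shares of genes set beside the members are not matched to them for count depth, and its part was not tested.

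**Figure D4:**
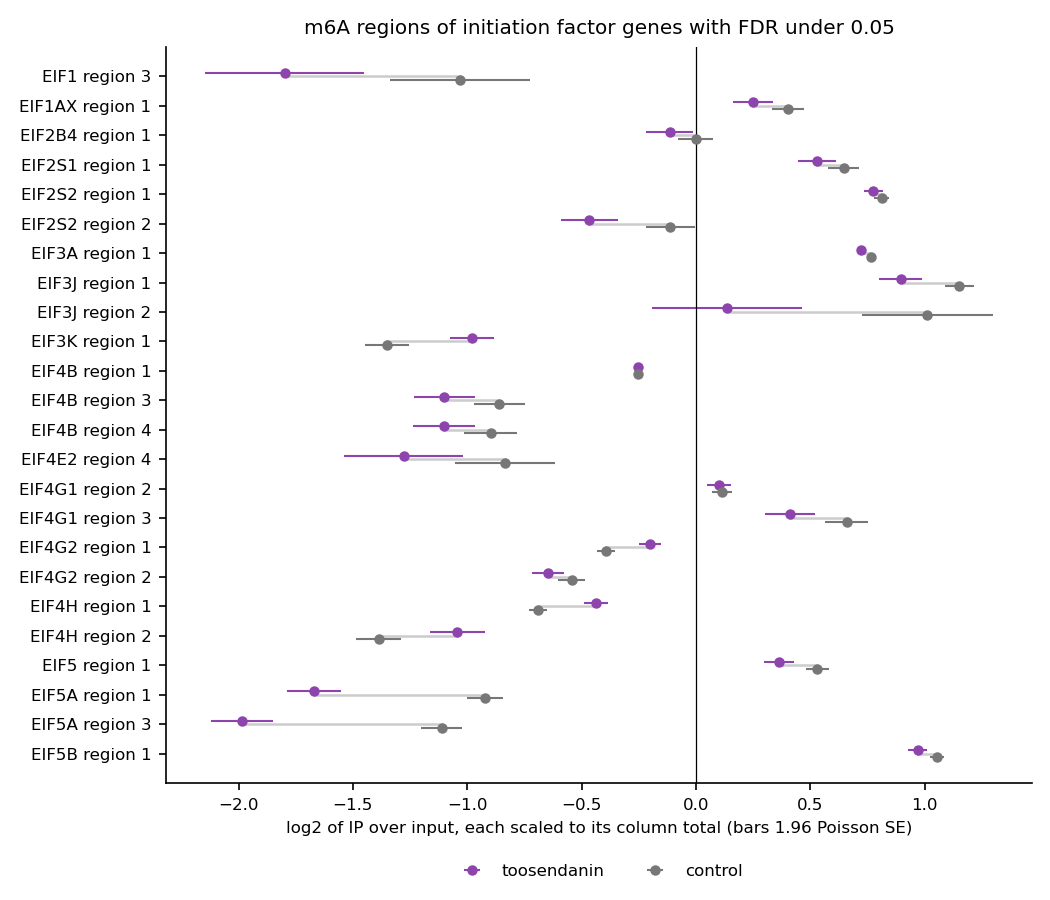
Log2 of IP over input, each scaled to its column total, in toosendanin (purple) and control (grey) for the 24 member regions with an FDR under 0.05 in the authors' deposited table; bars are 95% Poisson intervals. The line marks the ratio of the column totals, not a level without pull-down. EIF5A regions 1 and 3 lie left of it in both conditions, lower in toosendanin.

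**Figure D5:**
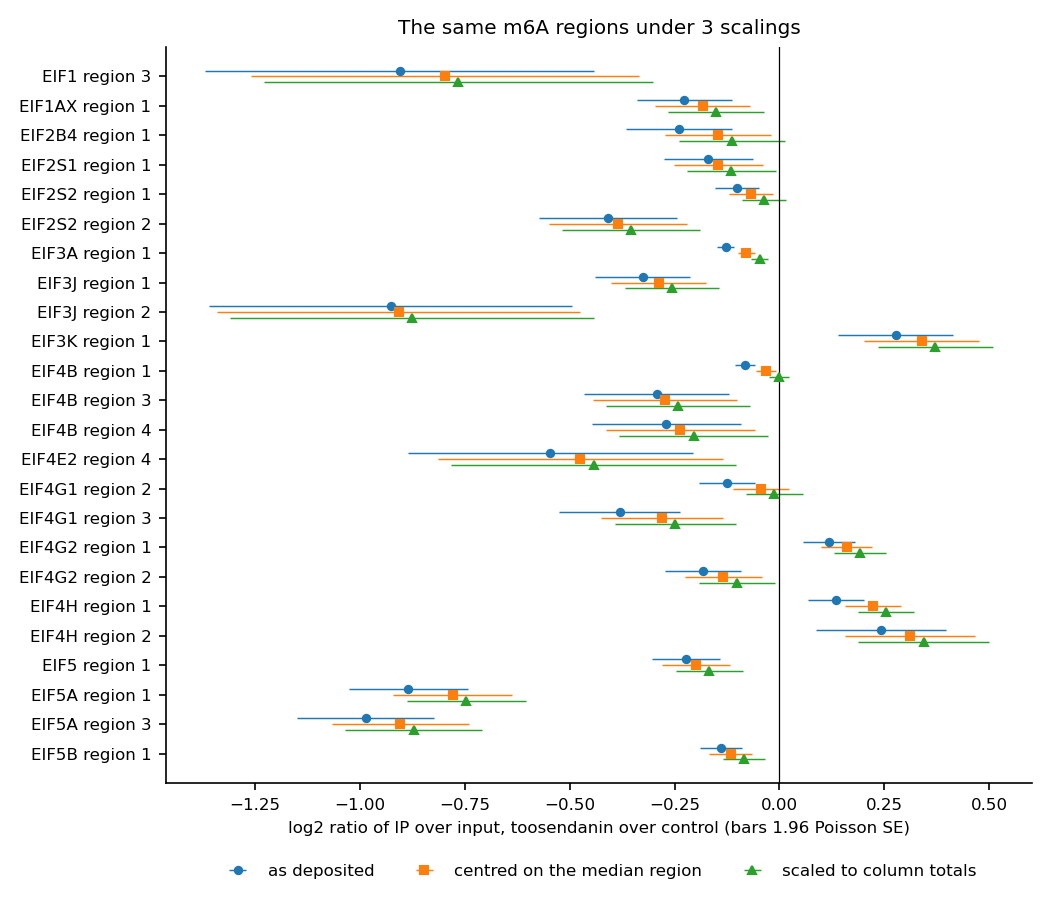
Log2 ratio of IP over input, toosendanin over control, for the same 24 regions as deposited (circles), centred on the median region (squares) and scaled to column totals (triangles); bars are 95% Poisson intervals. All 24 values move right from circle to triangle, and EIF4B region 1 and EIF4G1 region 2 come close to zero.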

How the data were processed

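Per the labels' protocols, stranded mRNA libraries with unique molecular identifiers were made. Per the submitters' processing notes, the tools included HISAT2, StringTie and DESeq. The sources used here name no build, annotation or m6A caller. Per the file headers, the authors deposited a DESeq2 result with a mean normalized count (a signal), a log2 fold change with standard error, a score (the Wald statistic), and raw and adjusted p-values. The m6A table, per the file headers, holds whole-number counts per region that the authors summed over the libraries of a condition, a log2 fold change, a p-value and an FDR. No values per library were in the files used here, so the deposited tests were used as they stand, with calls at 0.05. Nothing says that libraries came from separate cultures, so the p-values may measure technical spread.

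Computed here were IP over input from counts scaled to column totals, ratios of summed inputs over the regions of a gene, centred on the median gene, Poisson errors, and normal 95% intervals. Intervals from counts cover counting error only. The deposited sign was taken as toosendanin over control, because deposited and summed-input log2 changes correlated across 8053 well-counted genes (Pearson r 0.93; genes are not independent replicates). Members, roles and lists were chosen with earlier results of these data known. Each called member, the top 2 by mean count per role, each called region and the region with most control IP counts per role were named, with up to 4 genes per further list by adjusted p. Other members, ATF4, the stress response targets that fell and the marker genes were named after their values were seen. Software was Python 3.11.15 with scipy 1.17.1, pandas 2.3.3 and numpy 2.4.6.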

Additional observations from a re-analysis of the deposited data

How the results depend on the processing

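No paired analysis was possible because the files used here hold no values per library, and leaving out replicates was not run for the same reason. The count of 22 members called for expression, and its parts of 10 higher and 12 lower, stayed within 1.5 times under each alternative run (18 to 22 called): a threshold of 0.01, a log2 change of at least 0.25, an adjustment over all p-values, the upper 50% of means, and leaving out EIF4EBP genes or near-identical copies. All of these alternatives reuse the deposited p-values, and those that drop members could move the counts only a little. From summed inputs, EIF2S3B changed direction (log2 ratio 0.20), 14 other members moved by more than 1 standard error, and 5 uncalled members near zero had the other sign. The 24 called m6A regions depended more on the processing. With each statistic divided by 1.53, the robust spread of the statistics over all regions, 8 regions passed, 0 higher and 8 lower, among 423 of 24688 regions in all (1.71%). These were EIF3A region 1, EIF5A regions 1 and 3, EIF4B region 1, EIF3J region 1, EIF5 region 1, EIF4G1 region 3 and EIF5B region 1. The division was applied to the deposited statistics only, not to the centred or rescaled values. Among the 36 regions with IP above input in control, 10 passed, 0 higher and 10 lower, against 1069 of 10250 such regions in all (10.4%), 40 higher and 1029 lower. Centred on the median region, 12 were higher and 13 lower (all regions 1305 and 787); scaled to column totals, an alternative added after the data were seen, 18 were higher and 10 lower (all regions 1816 and 566). The median of all regions was -0.06 as deposited and 0.03 scaled to totals. An FDR under 0.01, a minimum of 50 counts per column and regions with 1 gene label left the counts within 1.5 times. The cause was not tested. The counts and shares over all regions given here are not matched to the member regions for count depth.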

Other observations

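Of the 15 names of the family outside the rule, 8 are not listed under their own label in the m6A table. EIF3C and EIF3CL, near-identical genes for the same eIF3 subunit, had mean normalized counts of 38210 and 27326 and log2 changes of -0.28 ± 1.06 and 0.76 ± 0.76 in the authors' deposited table. Their standard errors were far above those of the other eIF3 subunits, which ran from 0.05 to 0.10, and values for each copy are given as uncertain. EIF5A2 was listed at 0.37 ± 0.20 and EIF5AL1 at 0.00 ± 0.16 in the authors' deposited table. EIF4EBP3, at a mean normalized count of 6.65, was listed at -5.98 ± 2.57 with an adjusted p of 0.0604 in the authors' deposited DESeq2 table.

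The readthrough locus ANKHD1-EIF4EBP3 shared 10 m6A regions with ANKHD1, and the one with the most control IP counts held 3106 IP and 1626 input counts after toosendanin, against 6198 and 2949 in control (log2 change -0.15 in the authors' deposited table, FDR 0.0718). EIF4A1 shared its single region with SENP3-EIF4A1, which had a mean normalized count of 28.3 against 20239 for EIF4A1 in the authors' deposited table. The divergent transcript EIF3J-DT was listed at -0.32 ± 0.24 and did not pass, beside EIF3J at -0.44 ± 0.09, in the authors' deposited table.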
